A study of Mus musculus with 8 samples.

Results

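Slc1a2, Slc1a3, Glul, Aqp4, Kcnj10, Gja1, Gjb6, Slc6a11 and Slc4a4 are 9 mouse genes through which astrocytes take up transmitter, buffer potassium, move water and bicarbonate and couple to one another. They were grouped by function, as transporters and channels of astrocytes. They are 9 of the 21646 protein-coding genes of chromosomes 1 to 19 and X in the annotation used. Glul, which encodes an enzyme, is the member that is neither a transporter nor a channel. Each gene was described over 3 windows of the mouse genome build mm10 (GRCm38). The promoter window reached 1 kb to each side of the start site of the principal coding transcript, the gene body ran from the start to the end of the gene record, and the flanks were the 20 kb on each side of it. A level is the mean coverage of a window divided by the mean coverage of chromosomes 1 to 19 in the same library, so a level of 1 is the library mean and levels are comparable per base between genes.

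The study mapped the transcription factor SOX9 along the DNA of the mouse spinal cord by CUT&Tag, in which an antibody guides a transposase that cuts and tags the chromatin around the bound protein. Tissue came from WT mice (C57BL/6, 8 to 12 weeks old at entry, according to the methods of the study), which were left uninjured or were killed 1 day after a contusion of the thoracic cord. Segments of 5 mm around the injury, or at the matching level without one, were taken, and 150000 sorted nuclei per sample were used. The labels of these libraries name a DNA stain as the basis of the sort and no antibody to a cell type, while the paper refers to its general sorting protocol, which also includes antibodies to NEUN and SOX10. Of the nuclei, 20% per sample were carried through every step except the SOX9 antibody as secondary-only controls. The 8 libraries thus formed 4 groups of 2, SOX9 and control in uninjured mice and SOX9 and control at 1 day post injury (1 d.p.i.), each with 1 male and 1 female sample. No group carried a transgene. For sequencing in general the methods say that a few animals were pooled per condition, as many females as males, and they give no number for each sample of this assay. Every p-value here rests on the spread between these particular samples as pooled over many genes, and not on the spread at a single gene alone.

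The SOX9 libraries differed in depth. They held 1891276 fragments in the uninjured male, 7216730 in the uninjured female, 2529356 in the male at 1 d.p.i. and 2385009 in the female at 1 d.p.i., so the deepest had 3.82 times the fragments of the shallowest. At the library mean, a promoter window would hold 1.39, 5.30, 1.86 and 1.75 fragment starts in these libraries, in that order, which is the order used for all values below. The uninjured female also had the shortest fragments, with a mean of 223 bp against 256, 262 and 264 bp. Its median promoter level over all coding genes was 4.50, against 2.71 in the uninjured male, 3.51 in the male at 1 d.p.i. and 3.16 in the female at 1 d.p.i. The uninjured samples therefore stood at the low and the high end of this measure, with both injured samples between them. For gene bodies the medians lay between 1.35 and 1.47, and for flanks between 1.31 and 1.40. Chromosome Y lay at 0.310 and 0.173 times the mean in the male SOX9 libraries and at 0.0269 and 0.0392 in the female ones, which separates the labelled sexes. Chromosome X did not, with 0.347 and 0.283 in the male libraries and 0.276 and 0.386 in the female ones.

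The control libraries were far shallower and shared fragments with the SOX9 libraries. They held 22752 fragments in the uninjured male, 46846 in the uninjured female, 52950 in the male at 1 d.p.i. and 10906 in the female at 1 d.p.i., together 0.952% of the pooled SOX9 fragments. Among control fragments that overlapped no other in their library, 93.5%, 82.3%, 86.0% and 91.4% had the same start and the same end as a SOX9 fragment. After the control fragments had been moved by 1 kb, the share was between 0.0228% and 0.0428%. In the loci of the 9 genes, meaning the gene bodies with their flanks, 76 of 83 such control fragments (91.6%) had the ends of a SOX9 fragment. How the shared fragments arose was not tested. Chromosome Y did not separate the control libraries by sex, with 0.0553 and 0.0735 times the mean in the male ones and 0.0600 and 0.0354 in the female ones. Control values of the loci of Glul and Kcnj10 are given below as counts and as multiples of the controls' own genome mean. In the other loci the multiple ran from 0.163 for Slc1a3, on 1 fragment, to 1.67 for Slc6a11, on 14 fragments. Control values are no independent background for the SOX9 values.

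Astrocytes keep the extracellular space fit for synapses. Glutamate and GABA released by neurons are taken up by sodium-coupled transporters, glutamate is turned into glutamine by glutamine synthetase, potassium enters through inward rectifier channels, and water and bicarbonate follow through aquaporin and cotransporters. Gap junctions of connexins join the cells into a network, and SOX9 is a transcription factor with an HMG box that is made by astrocytes and several other glial and ependymal cells.

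The 9 promoters covered a wide range of SOX9 coverage, as the plot of levels by gene and window shows. The mean level over the 4 SOX9 libraries was highest for Kcnj10 at 20.6 ± 5.23 (SD, n = 4), followed by Glul at 16.1 ± 6.71 and Slc1a2 at 13.7 ± 3.15. The ranges of these 3 over the libraries overlapped, while within each library Kcnj10 was the highest of the 3. The other promoters followed at some distance, with Slc6a11 at 2.80 ± 0.789, Slc1a3 at 2.60 ± 0.898, Gjb6 at 1.75 ± 0.906, Slc4a4 at 1.62 ± 1.27, Aqp4 at 1.34 ± 0.592 and Gja1 at 0.902 ± 0.894. The lowest library of Slc1a2, at 10.6, was above the highest library of Slc6a11, at 3.46, while neighbours among the lower 6 did not differ beyond their spread. Among all 21646 coding genes, Kcnj10 ranked 954, Glul 1660 and Slc1a2 2322. The median of the 9 promoters was 2.60 and that of all coding genes 3.63, and 3 of the 9 were above it. For gene bodies the members' median was 1.41 and that of all genes 1.42, and for flanks 1.25 and 1.36. All 9 genes passed the minimum mean level of 0.5 for the promoter and the gene body, and 8 passed it for the flanks, where Gja1 had a mean of 0.387.

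**Figure D1:**
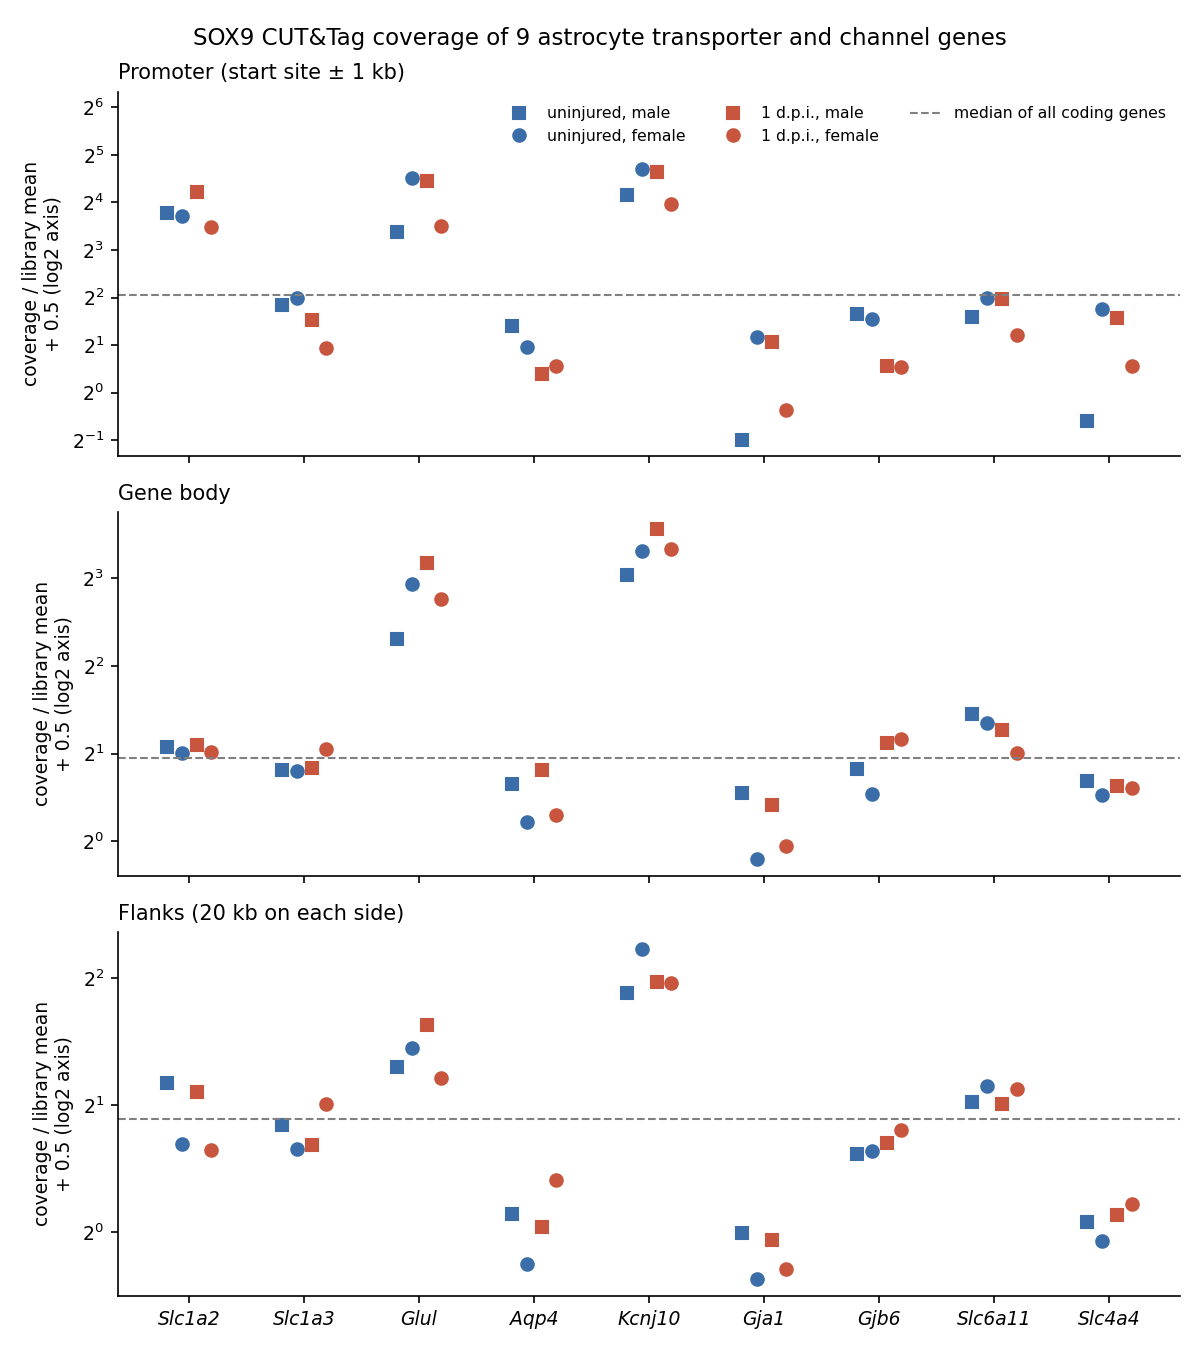
SOX9 coverage over the library mean with 0.5 added (log2 axis) of the 9 genes in the promoter, gene body and flank windows, with 1 point per SOX9 library (blue uninjured, red 1 d.p.i., squares male, circles female) and the median of all coding genes as a dashed line. The promoters of Kcnj10, Glul and Slc1a2 have means of 20.6, 16.1 and 13.7, and the other 6 have means of 2.80 or less.

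The base composition of the promoters divided the members in part along the same line. CpG-rich promoters, with at least 50% G and C and an observed over expected CpG ratio of at least 0.6, made up 46.5% of all coding genes and had a median level of 7.43, against 1.14 for the CpG-poor ones. Slc1a2, Glul, Kcnj10, Slc6a11 and Slc4a4 were CpG-rich, and Slc1a3, Aqp4, Gja1 and Gjb6 were CpG-poor. Within the 10059 CpG-rich promoters Kcnj10 ranked 842, Glul 1448 and Slc1a2 2009, while Slc6a11 ranked 8799 and Slc4a4 9541. Within the 11587 CpG-poor promoters Slc1a3 ranked 3496, Gjb6 4593, Aqp4 5351 and Gja1 6431.

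Change with injury was tested by limma on log2 levels, across all coding genes that passed the minimum and with Benjamini-Hochberg adjustment over all of them. The comparison asks whether SOX9 coverage at a gene differs between uninjured tissue and tissue taken 1 day after injury. With 2 libraries against 2, the smallest p that an exact two-sided permutation test can give is 0.333. Single genes therefore rest on the spread that limma shares across genes. Fitted without a mean-variance trend, the promoter changes of Gjb6 and Gja1 both had an SE of 0.697. Their largest log2 differences within a condition were 0.09 and 2.17. A promoter SE thus says little about how far a single gene's own samples differ. At an adjusted p under 0.05, limma called 2 of 17950 promoters (0.0111%), both higher at 1 d.p.i., and 323 had an unadjusted p under 0.05. The 2 genes, Ftl1-ps1 and Gm11361, are named after their values had been seen. Without any 1 of the 4 libraries, 0 promoters were called. Of the 9 members 0 were called at the promoter, and 0 had an unadjusted p under 0.05. For gene bodies limma called 0 of 17440 genes (0%), with 706 at an unadjusted p under 0.05, and 0 of the 9 members were called, with 1 at an unadjusted p under 0.05. Without the male or the female uninjured library 0 or 0 gene bodies were called, and without the male or the female library at 1 d.p.i. 10 or 46. For flanks 7 of 17203 genes (0.0407%) were called, all higher at 1 d.p.i., with 544 at an unadjusted p under 0.05. Without the male or the female uninjured library that count was 42 or 32, and without the male or the female library at 1 d.p.i. it was 0 or 2. Of the 8 members tested for flanks 0 were called, and 0 had an unadjusted p under 0.05. The lowest adjusted p among the members was 1.00 for each window. With sex as a term of the fit, since each condition had a male and a female sample, limma called 1 promoter, 122 gene bodies (67 higher and 55 lower) and 4 flanks, and 0 members in any window.

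The groups can also be compared by whether their libraries overlap. Both promoter levels at 1 d.p.i. were below both uninjured ones in 3 of the 9 members (Slc1a3, Aqp4 and Gjb6), and this held for 14.7% of the promoters of all genes tested. Both were above in 0 of the 9, against 8.32% of all promoters. In gene bodies both were above in 3 of the 9 (Slc1a3, Kcnj10 and Gjb6), against 13.4% of all genes, and both were below in 1 (Slc6a11), against 16.7%. In flanks both were above in 2 of the 8 (Gjb6 and Slc4a4), against 11.9%, and both were below in 0, against 15.4%. When each library was rescaled by a trimmed mean of log ratios, 1 of the 9 gene bodies (Gjb6) was above, against 8.55% of all genes, and 1 of the 8 flanks (Slc4a4), against 7.76%. The promoter counts were then 3 below and 0 above, against 12.8% and 6.38%, and Slc6a11 was again below in the gene body, against 13.7%. After thinning to the smallest library, Glul took the place of Slc1a3 among the 3 gene bodies above, and Gjb6 was no longer among the flanks. In bulk tissue, fewer astrocytes in a sample and less SOX9 signal per astrocyte cannot be told apart.

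Slc1a2 encodes GLT-1, the main glutamate transporter of astrocytes, and lies at chr2:102658659-102790784. Its promoter level was 13.3 in the uninjured male, 12.7 in the uninjured female, 18.1 in the male at 1 d.p.i. and 10.6 in the female at 1 d.p.i. The injured samples lay on either side of the uninjured pair. They differed by a log2 change of 0.09 (SE 0.67, limma p 0.889), a fold of 1.07. In the gene body the levels were 1.61, 1.50, 1.63 and 1.52, close to the median gene, and the groups interleaved. Per base, coverage was thus higher around the start site than over the gene, with rank 2322 for the promoter and 10053 for the gene body. The promoter window held 25, 72, 37 and 17 fragment starts, and the much longer gene body 147, 553, 216 and 191. Annotated start sites 47.8, 97.2 and 103 kb downstream had mean levels of 1.44, 0.222 and 2.15.

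Slc1a3 encodes GLAST, the other glutamate transporter of astrocytes, at chr15:8634124-8710764. The promoter had levels of 3.11, 3.46, 2.39 and 1.42, on 4, 16, 5 and 2 fragment starts. Both injured values were below both uninjured ones, with a log2 change of -0.68 (SE 0.70, limma p 0.329). For the count of 2 fragments the exact Poisson interval at 95% runs from 0.242 to 7.22, and such intervals cover counting error only, since PCR copies and fragments shared between libraries are not independent molecules. The gene body gave 1.26, 1.24, 1.28 and 1.57, with the female at 1 d.p.i. apart from the other libraries, and the conditions overlapped after the trimmed rescaling or thinning. The log2 change of the gene body was 0.13 (SE 0.16, limma p 0.432), opposite in sign to that of the promoter. Outside the promoter window, the 100-bp bin with the highest minimum over the libraries lay in an intron 52.4 kb from the start site. Its levels were 10.5, 15.6, 12.7 and 12.1. The bin picked by the same rule inside the promoter window had 7.95, 7.96, 11.4 and 4.02, but it was picked from a much shorter stretch.

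Glul encodes glutamine synthetase, the enzyme that turns glutamate taken up by astrocytes into glutamine, at chr1:153899944-153909723. Promoter levels were 9.87, 22.3, 21.5 and 10.8. The uninjured male and the injured female were low and the other samples high, so the groups overlapped fully. Between the conditions the log2 change was 0.03 (SE 0.68, limma p 0.962). The gene body gave 4.46, 7.15, 8.54 and 6.31 and ranked 1376 of all coding genes, with a log2 change of 0.35 (SE 0.38, limma p 0.397). The uninjured male was lowest here too, and the uninjured female lay between the injured samples. The pooled controls held 13 fragments in this locus, 4.95 times the number at their genome mean (exact Poisson interval at 95% 2.64 to 8.47), where the SOX9 libraries together had 3.02 times theirs. By library these were 1, 9, 3 and 0, and without the uninjured female control the value was 2.34 (0.639 to 6.002). All but 1 of the 13 had the ends of a SOX9 fragment.

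Slc6a11 encodes GAT-3, a GABA transporter of astrocytes, at chr6:114131241-114249952. Its promoter level was 2.50, 3.46, 3.42 and 1.82, with a log2 change of -0.19 (SE 0.69, limma p 0.778). The groups overlapped, since the injured male was close to the uninjured female. In the gene body the levels were 2.24, 2.05, 1.92 and 1.51, on 182, 672, 210 and 166 fragment starts. Both injured samples were below both uninjured ones, the female at 1 d.p.i. most. The log2 change was -0.26 (SE 0.18, limma p 0.195), and its sign was negative under all 14 other settings tried. The SOX9 coverage of this locus was higher downstream, at a mean of 2.28, than upstream, at 0.955.

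Aqp4 encodes the water channel of astrocyte endfeet, at chr18:15389496-15410982. At the promoter, coverage was 2.1, 1.44, 0.816 and 0.983, on 3, 9, 1 and 2 fragment starts. Both injured values were below both uninjured ones, on counts of 9 or fewer. Limma gave a log2 change of -0.70 (SE 0.79, p 0.378). The gene body gave 1.07, 0.660, 1.25 and 0.735, where the males were above the females in both conditions. The start sites of other annotated transcripts, 7.22 and 4.33 kb upstream of the principal one, had mean levels of 0.619 and 0.982, and no tile of this locus was high in all libraries by the rule given for Kcnj10. With the promoter window at the 5′ end of the gene record instead, the log2 change of Aqp4 was 0.33, opposite in sign, and the count of members with both injured values below was 2 in place of 3. With the window halved in width its change was -1.74, and none of these passed the test.

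Kcnj10 encodes Kir4.1, the inward rectifier through which astrocytes and oligodendrocytes take up potassium, at chr1:172341210-172374085. Its promoter level was 17.3, 25.7, 24.3 and 15.0, on 27, 149, 44 and 32 fragment starts. The uninjured female and the injured male were high and the other samples low. The log2 change was -0.14 (SE 0.70, limma p 0.846). The gene body gave 7.70, 9.47, 11.4 and 9.58, with rank 559 of all coding genes. Both injured values were above both uninjured ones, but the injured female exceeded the uninjured female by little, and after the trimmed rescaling the conditions overlapped. The log2 change of the gene body was 0.27 (SE 0.37, limma p 0.488). The upstream flank had levels of 5.15, 5.95, 5.03 and 4.88 and was above that of 94.0% of coding genes, while the downstream flank had a mean of 1.85.

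Most of the locus of Kcnj10 stood above the genome mean. Tiles of 1 kb were called high where the level was at least 3 in each of the 4 SOX9 libraries, which held for 1.84% of the 2633787 tiles of chromosomes 1 to 19 and X. In the 9 loci 43 of 1147 tiles (3.75%) were high, and 24 of them lay in the locus of Kcnj10, where they made up 32.4% of 74 tiles. Of the loci of all coding genes, 95.0% had a lower share of high tiles. Of the 24 tiles, 14 were intronic, 8 lay upstream, 1 held the start site and 1 lay in exon 2. Among the upstream tiles, 1 held the start site of Kcnj9, a gene on the minus strand. A run of 5 lay farther upstream, on the side into which Kcnj9 is transcribed. A run of 12 adjoining high tiles covered chr1:172340001-172352000, from upstream of the start site into the intron. Its highest tile was not the one with the start site, which had a mean of 25.7, but the one at chr1:172350001-172351000 in the intron, 9.29 kb downstream. There the levels were 38.8 in the uninjured male, 63.2 in the uninjured female, 76.8 in the male at 1 d.p.i. and 52.2 in the female at 1 d.p.i. The groups overlapped, and only 328 tiles of the genome (0.0125%) had a higher lowest value over the 4 libraries. The profile along the Kcnj10 locus shows this peak in all 4 SOX9 libraries. Among 100-bp bins, the one with the highest minimum over the 4 SOX9 libraries was at chr1:172350001-172350100 with levels of 77.2, 142, 156 and 80.8.

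**Figure D2:**
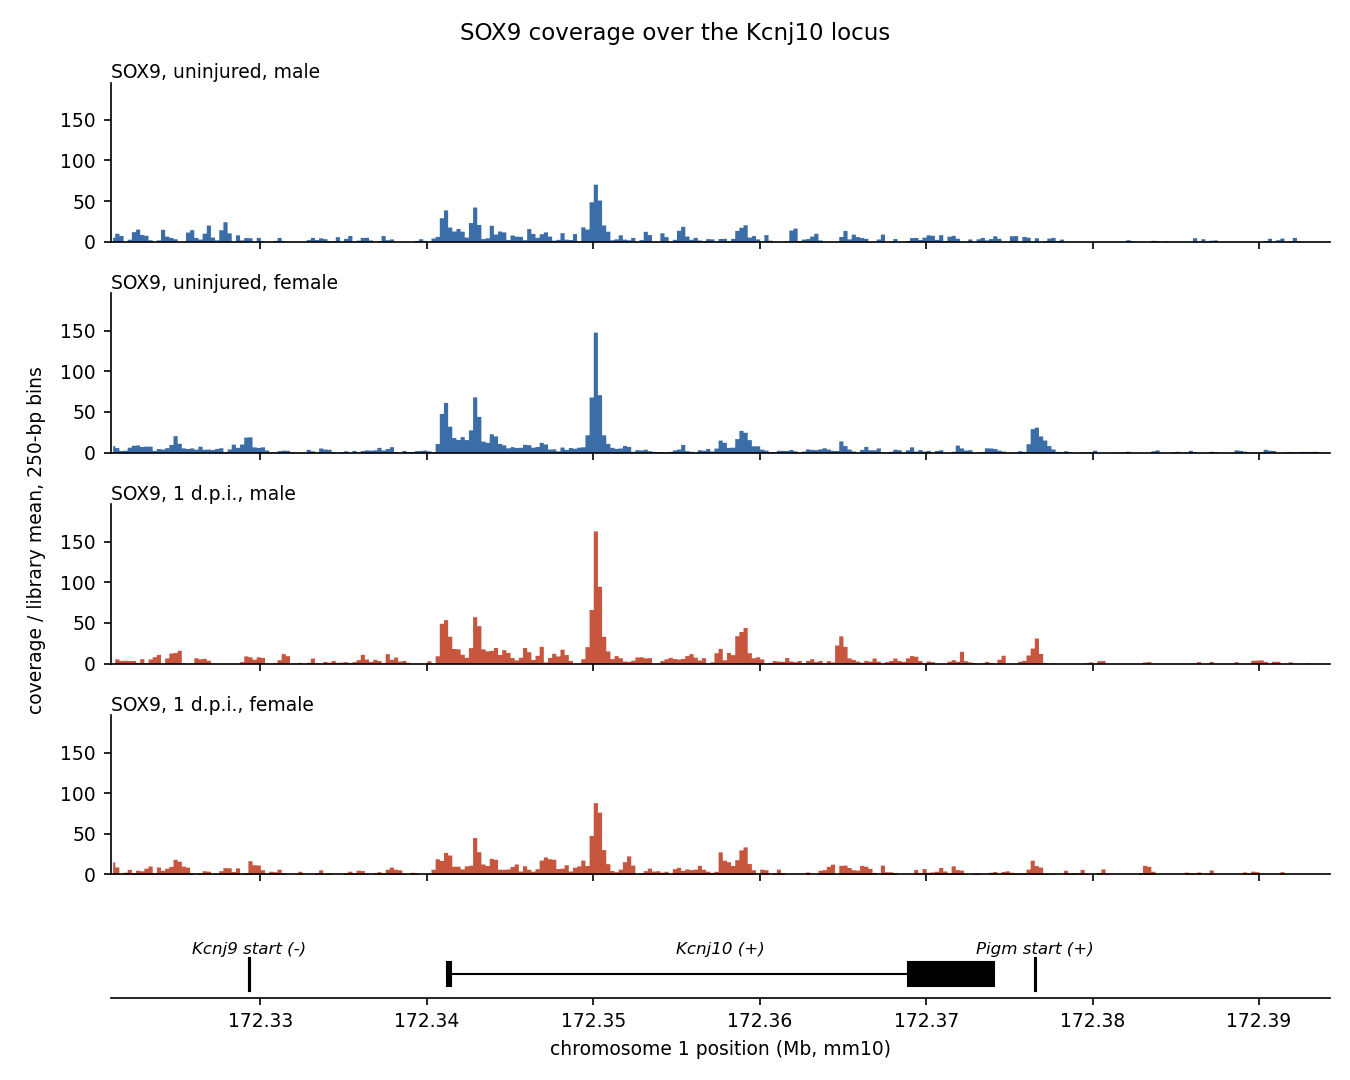
SOX9 coverage over the library mean along the Kcnj10 locus on chromosome 1 (mm10), in 1 panel per SOX9 library, with the exons of Kcnj10 and the start sites of Kcnj9 and Pigm marked. All libraries show a start-site region and a higher intronic peak, where the highest tile has levels of 38.8, 63.2, 76.8 and 52.2.

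The controls bear on this locus as well. They held 24 fragments there, 6.24 times the number at their genome mean (exact Poisson interval at 95% 4.00 to 9.29), against 6.49 times for the SOX9 libraries together. By library these were 6, 3, 14 and 1 control fragments, and without the male control at 1 d.p.i., which held the most, the value was 4.31 (2.07 to 7.92). All 11 of them that overlapped no other control fragment had the start and end of a SOX9 fragment. Whether the locus is also open to the transposase without the antibody was not tested. The start site of Kcnj9, another inward rectifier, lay 11.9 kb upstream in the flank, with a promoter mean of 6.66, and that of Pigm lay 2.46 kb downstream of the gene, with 8.61.

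Gja1 encodes connexin 43, the main gap junction protein of astrocytes, at chr10:56377330-56402513. Its mean coverage over the 4 SOX9 libraries was the lowest of the 9 genes in all 3 windows. At the promoter, coverage was 0, 1.75, 1.59 and 0.271, on 0, 8, 3 and 1 fragment starts. A count of 0 allows up to 3 fragments as a one-sided limit and up to 3.69 by the two-sided interval, so the uninjured male could not be told from the library mean, at which 1.39 would start. The log2 change was 0.26 (SE 0.91, limma p 0.775), and no difference was detectable at this depth. The gene body gave 0.965, 0.368, 0.837 and 0.459, with both males above both females. The upstream and downstream flanks had means of 0.468 and 0.307.

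Gjb6 encodes connexin 30, the other astrocyte connexin, at chr14:57123303-57133611. Its promoter level was 2.63, 2.43, 0.983 and 0.951, on 3, 11, 2 and 2 fragment starts. Both injured values were below both uninjured ones, and the samples within each condition lay close together. The log2 change was -1.05 (SE 0.75, limma p 0.164, adjusted p 1.00). With the window halved in width it was -1.87, and with 2 as the added constant -0.61. Across its alternative settings the adjusted p was between 0.359 and 1.00. The lowest came from the fit of all 8 libraries, where the control libraries, all at 0 at this promoter, added no spread of their own and the SE was 0.21. It was the most negative of the 9 promoter changes except after thinning, where Aqp4 had -1.23 and Gjb6 -1.09. The gene body went the other way, with 1.27, 0.953, 1.67 and 1.74. Both injured values were above both uninjured ones there, on 9, 28, 18 and 14 fragment starts. The log2 change was 0.46 (SE 0.17), with an unadjusted limma p of 0.0361 and an adjusted p of 1.00, so it did not pass the test over all genes. Across the alternative settings of the gene body that adjusted p was between 0.706 and 1.00. The flanks gave 1.04, 1.06, 1.13 and 1.24, where the conditions overlapped after the trimmed rescaling or thinning, with a log2 change of 0.12 (SE 0.19, limma p 0.510). In the downstream flank lay the start site of Gjb2, which encodes connexin 26, 18.6 kb from the gene, and that of Gm4491, 7.42 kb from it. Their promoter means were 1.56 and 2.71.

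Slc4a4 encodes NBCe1, the sodium bicarbonate cotransporter by which astrocytes regulate pH, at chr5:88886818-89239653, and at 353 kb it is the longest of the 9 genes. Promoter levels were 0.158, 2.89, 2.45 and 0.985, on 1, 17, 4 and 4 fragment starts. The uninjured male was lowest and the uninjured female highest, with the injured samples between them. Between the conditions the log2 change was 0.49 (SE 0.79, limma p 0.538). It was -0.70 without the uninjured male, 1.67 without the uninjured female, -0.01 without the male at 1 d.p.i. and -0.11 after thinning, so its sign rested on single libraries. The gene body gave 1.10, 0.941, 1.05 and 1.03, near the library mean in each sample. The flanks gave 0.557, 0.451, 0.60 and 0.670, both injured values being above both uninjured ones, with a log2 change of 0.18 (SE 0.25, limma p 0.469). Start sites of other transcripts 47.7 and 141 kb downstream had mean levels of 1.71 and 0.528.

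The changes of the members are set beside one another in the plot of log2 changes. Their median was -0.14 for promoters, 0.12 for gene bodies and 0.08 for flanks, against -0.06, -0.03 and -0.04 over all genes tested. Standard errors were wider for promoters, between 0.67 and 0.91, than for gene bodies, between 0.15 and 0.38. The median change over all promoters itself moved with the uninjured libraries: it was -0.46 without the male and 0.28 without the female, and -0.10 with the trimmed rescaling. Promoter changes of the members are within these shifts for all but Slc1a3, Aqp4, Gjb6 and Slc4a4, and those 4 had standard errors of 0.70 to 0.79. With 1 library left out the sign of the promoter change turned at least once for 6 members, Slc1a2, Glul, Kcnj10, Gja1, Slc6a11 and Slc4a4.

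**Figure D3:**
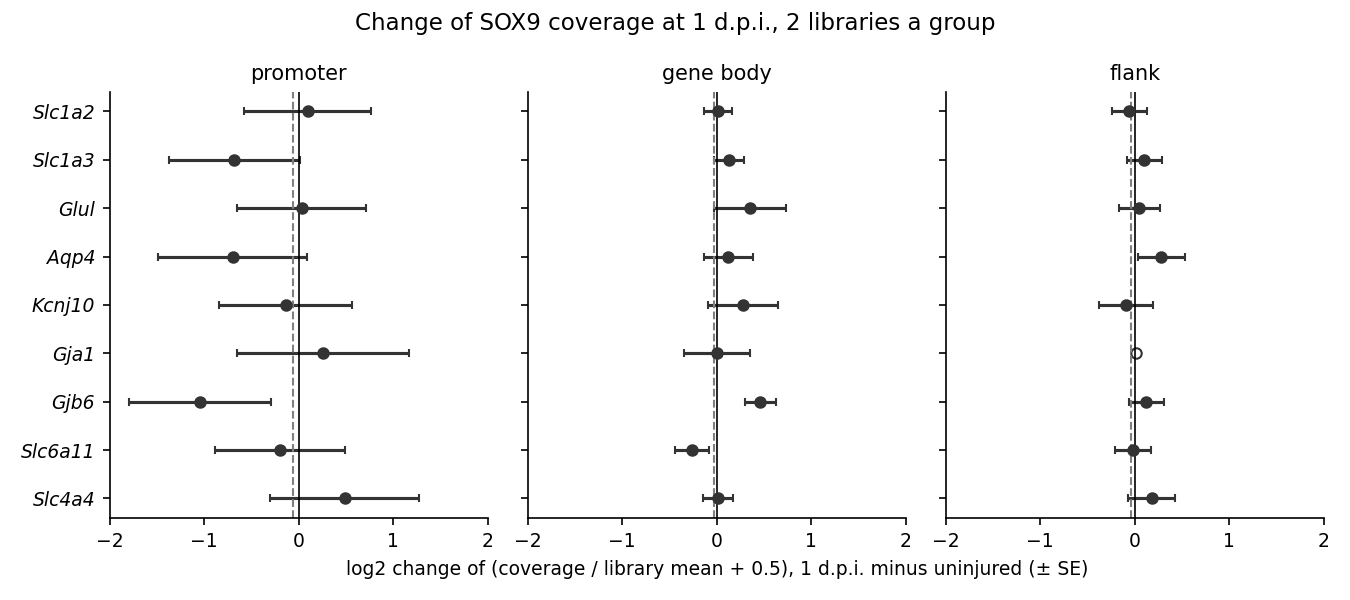
Log2 change of SOX9 coverage at 1 d.p.i. against uninjured for the 9 genes in the 3 windows, as points with their standard error from limma, and the median change of all genes tested as a dashed line; the open circle is Gja1, whose flanks were not tested. Gjb6 has a promoter change of -1.05 and a gene body change of 0.46, and 0 of the 9 genes passed the adjusted threshold in any window.

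Outside Kcnj10, high tiles were few. Glul had 5 of 51, at and downstream of its start site, where the most distant lay 10.6 kb away. Slc1a3 had 5 of 117, all in introns, and Slc1a2 had 3 of 173, a pair of them at or next to the start site. Slc6a11 had 3 of 159, with the most covered 28.3 kb inside the gene at a mean of 9.37, and Slc4a4 had 3 of 394, all intronic, the farthest 285 kb from the start site. Aqp4, Gja1 and Gjb6 had 0 of 62, 66 and 51. Glul, with a share of 9.80%, was above 79.6% of the loci of all coding genes, and Slc1a3, with 4.27%, above 65.6%. The median share over those loci was 1.87%, so Slc1a2 with 1.73% and Slc6a11 with 1.89% were close to a typical locus, and Slc4a4 with 0.761% was below it.

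The most covered places of the loci were read as sequence to show what DNA lies under the signal away from the members' own start sites. For each member the 100-bp bin with the highest minimum over the 4 SOX9 libraries was taken outside the promoter window, and 200 bases around its centre were searched on both strands. The motifs were ACAATG and ACAAAG for SOX factors, TGACTCA and TGAGTCA for AP-1, and for NFI factors TTGGC and GCCAA separated by 5 bases. Gja1 had no bin with coverage in all 4 libraries, and the chromosome of Aqp4 was left out of the search for the members by choice, though its bin had levels of 10.5, 5.75, 11.2 and 5.79. That left 7 windows, and that of Gjb6 overlapped a UTR and is not shown. A SOX motif was found in 5 of the 7, in those of Slc1a2, Slc1a3, Glul, Kcnj10 and Slc4a4, and none in those of Slc6a11 and Gjb6. The summits of 18630 coding genes picked in the same way, with no chromosome left out but Y, held one in 19.4%, a background that was added after the members' windows had been seen. The centres of 48371 high tiles held one in 19.7% and the 21643 start sites in 15.3%. In the start-site windows of the same 7 members, 1 held a SOX motif. AP-1 and NFI motifs were found in 0 of the 7 windows away from the members' own start sites, against 3.53% and 0.0107% of the summits of all coding genes. The window of Kcnj10 held 3 SOX motifs, as 0.526% of those summits did with 3 or more. A match is a description of the letters and not a binding site. The 6 windows that can be shown follow on the plus strand of mm10, with the SOX motifs in capitals. They lie at chr2:102673351-102673550 for Slc1a2 (intron), chr15:8658251-8658450 for Slc1a3 (intron), chr1:153910451-153910650 for Glul (downstream of the gene), chr1:172349951-172350150 for Kcnj10 (intron), chr6:114159151-114159350 for Slc6a11 (intron) and chr5:89171351-89171550 for Slc4a4 (intron).
Slc1a2: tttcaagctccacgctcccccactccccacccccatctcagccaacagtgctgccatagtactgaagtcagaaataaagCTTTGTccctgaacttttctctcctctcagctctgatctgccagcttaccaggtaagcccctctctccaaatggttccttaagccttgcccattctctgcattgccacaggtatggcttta
Slc1a3: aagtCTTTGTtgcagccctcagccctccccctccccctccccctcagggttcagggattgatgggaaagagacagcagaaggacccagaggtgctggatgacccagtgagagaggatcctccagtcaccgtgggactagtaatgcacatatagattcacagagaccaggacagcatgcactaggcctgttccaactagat
Glul: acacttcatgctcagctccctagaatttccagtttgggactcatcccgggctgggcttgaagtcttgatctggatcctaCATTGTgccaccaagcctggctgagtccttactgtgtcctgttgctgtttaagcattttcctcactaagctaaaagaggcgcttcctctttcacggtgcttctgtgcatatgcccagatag
Kcnj10: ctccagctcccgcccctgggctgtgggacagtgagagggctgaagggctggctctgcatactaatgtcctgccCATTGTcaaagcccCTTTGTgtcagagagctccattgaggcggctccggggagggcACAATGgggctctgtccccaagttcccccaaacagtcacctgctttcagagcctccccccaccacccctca
Slc6a11: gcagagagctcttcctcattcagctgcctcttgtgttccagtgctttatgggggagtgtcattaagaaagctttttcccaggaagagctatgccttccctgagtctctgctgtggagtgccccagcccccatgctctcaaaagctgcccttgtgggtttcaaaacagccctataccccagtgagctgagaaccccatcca
Slc4a4: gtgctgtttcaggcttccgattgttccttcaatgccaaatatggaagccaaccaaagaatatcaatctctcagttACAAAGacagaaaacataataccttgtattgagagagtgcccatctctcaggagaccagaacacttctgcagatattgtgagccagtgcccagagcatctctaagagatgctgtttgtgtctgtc

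These windows differed in coverage as well as in letters. For Slc1a2 the bin levels were 10.5, 6.32, 7.63 and 7.60, and for Glul they were 19.1, 8.60, 20.5 and 10.1. For Slc6a11 they were 17.4, 18.3, 18.8 and 8.04, and for Slc4a4 they were 10.2, 22.8, 15.1 and 12.1. In none of the 6 bins shown did the conditions separate, and the bin of Kcnj10 was the most covered of them in every library. The bin of Gjb6, whose sequence is not shown, lay 17.7 kb from the start site of Gjb6. The window around it held the start site of another coding gene, Gm4491. The levels of this bin were 2.58, 7.53, 12.8 and 8.04, with both injured libraries above both uninjured ones. That difference was not tested. The windows of Slc1a2, Slc1a3, Glul, Slc6a11 and Slc4a4 had G and C contents of 51%, 55%, 49.5%, 53% and 43.5%, and that of Kcnj10 had 62%, where the median over the summits of all coding genes was 55.5%.

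The members were also set beside a wider list of 36 other genes of astrocyte transport, channels and homeostasis, among them further amino acid carriers, pump subunits, potassium and chloride channels and proteins of the endfoot. Their median promoter level was 5.58, with 24 of 36 above the median of all coding genes, against 3 of the 9 members. Their median was 2.08 in gene bodies and 1.97 in flanks. The highest promoters were those of Slc1a4 at 21.9, Clcn2 at 17.98 and Glud1 at 16.6, and the lowest those of Kcnj16 at 0.219, Slc14a1 at 0.623 and Slco1c1 at 0.723. With limma, 0 of the 35 genes tested at the promoter, 0 of 32 in the gene body and 0 of 32 in the flanks were called, and 3, 0 and 1 had an unadjusted p under 0.05. The 4 genes are named after their values had been seen. Slc7a11, the cystine-glutamate exchanger, had promoter levels of 0.258, 1.63, 5.03 and 3.41, both injured above both uninjured, and a log2 change of 1.87 (SE 0.73, unadjusted limma p 0.00987, adjusted p 1.00). Kcnn3 and Gjb2 had promoter changes of -1.50 and -1.73, and Lrrc8a had a flank change of 0.60, each with an adjusted limma p of 1.00. At the promoter both injured libraries were above both uninjured ones in 4 of the 35 genes tested and below in 6, against 8.32% and 14.7% of all promoters tested.

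Markers of cell types were read in the same windows, since the tissue holds many cell types. The median promoter level of 10 astrocyte markers was 5.36 and their median gene body level 4.28. For 10 markers of the oligodendrocyte lineage these were 16.3 and 6.35, for 10 neuron markers 5.81 and 1.32, for 10 microglia markers 2.08 and 2.299, for 10 endothelial markers 1.33 and 0.715 and for 10 ependymal markers 2.81 and 1.26. The 9 members, at 2.60 and 1.41, were below the astrocyte markers in both windows. The medians were thus not highest for the genes that mark astrocytes, and how far each cell type contributed was not tested. The astrocyte markers ranged from Cldn10 at 2.68 to Aldoc at 20.4 in promoter level, and Gfap stood at 6.74 with 6.64, 4.32, 9.45 and 6.53 by library. Per library the median promoter level of the astrocyte markers was 4.13, 4.44, 7.39 and 5.78, that of the microglia markers 0.921, 1.66, 2.15 and 2.51, and that of the members 2.63, 3.46, 2.45 and 1.42. Both injured libraries were above both uninjured ones for the astrocyte and microglia medians, and gene by gene for 2 of 10 astrocyte and 5 of 9 microglia markers tested, against 8.32% of all promoters. Both were below for the members, for the neuron markers, at 6.34, 8.18, 6.08 and 4.06, and for the ependymal markers, at 3.11, 2.83, 2.33 and 1.74. After the trimmed rescaling the promoter medians of the conditions overlapped for the members and the neuron markers. Gene by gene both injured libraries were below both uninjured ones for 4 of 10 neuron and 2 of 9 ependymal markers tested, against 14.7% of all promoters. Both were above for 3 of 8 endothelial markers tested. In gene bodies the members' median went the other way, with 1.27, 1.24, 1.63 and 1.52. There the conditions overlapped for the astrocyte medians, 3.71, 3.78, 5.28 and 3.68, and for the neuron medians, 1.28, 1.57, 1.30 and 1.13. The microglia medians, 1.96, 2.099, 2.53 and 2.18, were again above in both injured libraries, and the ependymal ones, 1.26, 1.45, 1.11 and 1.18, again below. In flanks both injured libraries were above for the astrocyte medians, 2.64, 2.79, 3.38 and 2.84, and below for the microglia medians, 1.60, 1.67, 1.46 and 1.47. Both were above for the endothelial flank medians too, 0.813, 0.740, 0.847 and 0.822. Both were below for those of the oligodendrocyte lineage, 3.76, 3.75, 3.56 and 3.16, and for the ependymal ones, 1.47, 1.66, 1.34 and 1.30. At the main scaling the direction for the microglia markers thus depended on the window. After the trimmed rescaling the conditions overlapped for the gene body and flank medians of the microglia markers. They then also overlapped for the other flank medians given here. With limma 0 genes of the 6 marker lists were called in any window, and the part of cell composition in the members' values was not tested.

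Each member was finally matched with the coding gene closest to it over 12 values, the log2 levels of the 3 windows in the 4 SOX9 libraries. By Euclidean distance the closest genes were Kif21a for Slc1a2 (0.65), Grhl3 for Slc1a3 (0.71), Tppp for Glul (0.79), Abra for Aqp4 (0.84) and Aldoc for Kcnj10 (0.77). They were Gm12830 for Gja1 (0.71), Bend5 for Gjb6 (0.88), Pgam5 for Slc6a11 (0.55) and Ppp1r3b for Slc4a4 (0.71). The median gene lay at a distance between 3.92 and 7.28 from the members. Aldoc, which is also among the astrocyte markers, had mean levels of 20.4 at the promoter, 9.32 in the gene body and 4.01 in the flanks, beside 20.6, 9.53 and 3.55 for Kcnj10. Among the members themselves, Slc1a3 and Gjb6 lay closest, at 1.26, and Kcnj10 and Glul were each other's nearest, at 1.91.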

How the data were processed

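The deposited coverage of 4 SOX9 and 4 control libraries gives, as the authors made it, signal in the form of fragment coverage per stretch of mm10. According to the submitters' processing notes, reads were mapped with Bowtie2 2.5.4, cleared of duplicates with Picard 3.4.0 and turned into peaks with SEACR 1.3. Here each library was scaled to its mean over chromosomes 1 to 19, and fragments were rebuilt from the rises and falls of coverage. Genes came from GENCODE M21, where 24 repeated symbols were dropped. Depth ran from 1891276 to 7216730 fragments in the SOX9 libraries, so promoter values rest on few fragments. Log2 levels, with 0.5 added, were fitted with limma 3.58.1 (R 4.3.3) with a mean-variance trend, for genes with a mean of at least 0.5, two-sided, adjusted at 0.05. The fit was also run on simulated data, in which the libraries did not differ in median promoter level as the real ones did. That run therefore does not show how the fit behaves under such differences. Controls were left out of the fit because of their depth. Windows and sequences were read with Python 3.11.15, numpy 2.4.6, pandas 2.3.3 and pysam 0.24.0. Alternatives changed the scaling, depth, added constant, minimum, sex term, libraries fitted, trend, windows, tile rule and single libraries. Named were all 9 members, the coding gene closest to each and the coding genes that start in their flanks. In the upstream flank of Glul this was Teddm1a, with a promoter mean of 1.46. The promoters called over all genes were also named. Of the wider list, the 3 highest and 3 lowest promoters and the genes with an unadjusted limma p under 0.05 were named. Of the markers, Gfap and the lowest and highest astrocyte promoters were named. The members and lists were chosen with earlier results of these data known.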

Additional observations from a re-analysis of the deposited data

Results flagged for a closer look

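At 3 of the 9 promoters the male and the female pair moved in opposite directions by at least 2-fold, which is what drew attention to them. The log2 change from the uninjured to the 1 d.p.i. library was 1.08 in the male pair and -1.02 in the female pair for Glul, 2.06 and -1.54 for Gja1, and 2.16 and -1.19 for Slc4a4. Each pair is 1 library against 1, so the difference was not tested. The promoters held 19, 119, 41 and 21 fragment starts for Glul, 0, 8, 3 and 1 for Gja1 and 1, 17, 4 and 4 for Slc4a4, so the last 2 rest on very few fragments. Over all promoters tested, 1016 of 17950 (5.66%) had such opposite changes, and in 851 of them the male pair was up and the female pair down, as in these 3 genes. The uninjured male library, the shallowest, had the lowest median promoter level of all SOX9 libraries, and the uninjured female, the deepest, the highest. The part of depth in these differences was not tested. In gene bodies 149 of 17440 genes (0.854%) and in flanks 0 of 17203 had such changes.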

How the results depend on the processing

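No member passed the adjusted threshold in any window under any setting tried. With all 4 SOX9 libraries kept, the sign of the members' changes differed from that reported in 4 of 99 estimates for promoters, 5 of 90 for gene bodies and 0 of 80 for flanks. With 1 library left out it differed in 11 of 36, 7 of 36 and 8 of 31, and the lowest adjusted p of a member was then 0.346, for the flanks of Aqp4 without the uninjured male.

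The counts over all genes moved more. The 2 promoters called became 0 with the trimmed rescaling, without the minimum, with all 8 libraries in the fit and with the promoter window halved in width, and 1 after thinning to the smallest library, with 2 as the added constant and with the window at the 5' end of the gene record. Leaving out 1 library gave 0 to 0. For gene bodies the 0 called became 3 with the trimmed rescaling, 4 with all 8 libraries and 0 to 46 with 1 library left out. For flanks the 7 called became 0 with the trimmed rescaling, 3 after thinning, 0 with all 8 libraries, 2 without the trend and 0 to 42 with 1 library left out. With sex as replicate block, limma called 1 promoter, 122 gene bodies (67 higher, 55 lower) and 4 flanks, and none was a member. The cause was not tested.

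The members' median gene body level of 1.41 was 1.52 when the mean included chromosomes X and Y, 1.54 after thinning, and 1.30 to 1.56 with 1 library left out. Their medians for promoters and flanks moved by less than the spread between libraries. High tiles in the 9 loci numbered 76 at 2 times the mean, 23 at 5 times and 82 at 3 times in at least 3 libraries, against 6.63%, 2.01% and 7.15% of their tiles and 3.39%, 0.774% and 3.92% of the genome. Where a library was left out, the lone library of its condition was assumed to vary like the other condition, and counts of members without overlap were not computed.

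Depth limits the promoters most: 6 of the 9 had fewer than 20 fragment starts in each SOX9 library. Control libraries share most fragments with the SOX9 ones, so no independent background was available for a test of SOX9 against control. SOX9 coverage was not related to expression here, and peak calls were not analysed here.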
